A study of Bos taurus with 4 samples.

Results

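The last 5 Mb of the 29 bovine autosomes were examined in peak lists of 2 histone marks, H3K4me3 and H3K27me3, from bovine embryonic stem cells. A peak was a member when it lay wholly within the last 5 Mb of its chromosome, with the end taken as the most distal base under a peak of either mark. The members were 2170 and 2087 H3K4me3 peaks in replicates 1 and 2, and 2542 and 2193 H3K27me3 peaks. Together they were 8992 of 76857 autosomal peaks and of 95708 peaks on all sequences. These distal zones held 5.83% of the autosomal length measured this way. They were compared with the first 5 Mb of the same chromosomes, which held 4883 peaks, and with the interior between both zones, which held 62968. The other 14 peaks straddled a zone border and belonged to none.

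Bovine autosomes are acrocentric, so their centromere lies near the first base and the distal end is the far telomeric end. H3K4me3 is laid down at active and poised promoters, often at CpG islands. H3K27me3 is the mark of the Polycomb repressive complex PRC2, which covers silent developmental genes, and promoters that carry both marks are called bivalent and are common in pluripotent cells.

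All 4 libraries came from cells grown in the same condition, and the labels name no treatment and no genetic change. The cells, named NBFR-bESCs, were grown in N2B27 base medium with FGF2, the WNT inhibitor IWR-1 and bovine serum albumin on mouse embryonic fibroblasts, and the feeders were depleted with magnetic beads before the assay. The labels give a single derivation from a female blastocyst at day 7, while a figure legend of the study speaks of independent lines, and which replicate is which line is not stated. CUT&RUN, in which an antibody guides a nuclease to cut out marked chromatin, was run on about 50000 cells per library, with 2 libraries per mark. Because an exact two-sided test over 2 libraries cannot go below p = 0.5, each difference between zones was tested over chromosomes with an exact two-sided sign test on the mean of both libraries, adjusted by Benjamini-Hochberg over 24 differences, 17 of which (70.8%) passed 0.05. Chromosomes of the same cells are not biological replicates, and the spread between libraries may be technical. Read depth is unknown from the lists, so a missing peak means that none was listed.

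H3K27me3 was concentrated toward the distal ends. Its peaks covered 24.6% of the last 5 Mb in replicate 1 and 24.9% in replicate 2. In the interior they covered 6.02% and 6.55%, and in the first 5 Mb 8.52% and 9.54%. Distal coverage was thus 3.94 times the interior value and 2.74 times the value of the first 5 Mb, far beyond the difference between the libraries. It was higher than in the interior on 24 of 29 chromosomes (exact sign test, adjusted p = 0.00146) and higher than in the first 5 Mb on 23 (exact sign test, adjusted p = 0.00505). The distal zones, which make up 5.83% of the length, held 19.8% and 18.6% of all autosomal bases under H3K27me3. Peaks were also more numerous, at 17.5 and 15.1 per Mb against 5.56 and 5.30 in the interior, a ratio of 3.01 (higher on 24 of 29 chromosomes, exact sign test, adjusted p = 0.00146). The first 5 Mb had 8.19 and 8.06 per Mb, and the distal zones exceeded them by 2.01 times on average (22 of 29, exact sign test, adjusted p = 0.0139). Without replicate 1 that last ratio was 1.88 and no longer passed.

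H3K4me3 was also denser in the distal zones, by a smaller factor. There were 15.0 and 14.4 peaks per Mb in the last 5 Mb. The interior had 9.29 and 8.51, and the first 5 Mb had 9.04 and 8.39. The ratio to the interior was 1.65, with 22 chromosomes higher and 7 lower (exact sign test, adjusted p = 0.0139), and the ratio to the first 5 Mb was 1.68 (21 higher, 7 lower, exact sign test, adjusted p = 0.0201). Coverage by H3K4me3 was 3.56% and 3.63% in the distal zones against 2.55% and 2.56% in the interior. That ratio of 1.41 was above 1 on 18 chromosomes and did not pass the test (exact sign test, adjusted p = 0.289), whereas coverage was 1.58 times that of the first 5 Mb (21 of 29, exact sign test, adjusted p = 0.0341). The call on density against the interior was lost when peaks scoring under the list median were left out (ratio 1.40), when both end zones were moved 200 kb inwards (ratio 1.59) and with zones of 10 Mb (ratio 1.69). Against the first 5 Mb, the density call was lost under those settings (ratios 1.48, 1.70 and 1.76) and with zones of 2 Mb (1.68), and the coverage call was lost without chromosome 23 (1.53), with zones of 10 Mb (1.70) and without peaks under the median score (1.42). The score is a whole number per peak that the authors' caller assigned, whose meaning is not named, and it was compared only within a list.

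The marks differed in how they changed with distance from the end. H3K27me3 coverage was 23% and 22.8% in the outermost 1 Mb, reached 31% and 30.8% between 1 and 2 Mb, and was 18.3% and 18.9% between 4 and 5 Mb. Over successive stretches of 5 Mb it fell from 24.6% to 13.2%, 10.9% and 8.85% in replicate 1 and from 24.9% to 13.9%, 11.5% and 9.53% in replicate 2. Averaged over 5 Mb, H3K27me3 was thus highest in the last stretch and above the interior value up to 20 Mb, although the bins between 7 and 8 Mb (5.66% and 6.45%) and between 18 and 19 Mb (4.7% and 5.42%) lay below it. H3K4me3 density showed no such decline over the first stretches, at 15.0, 15.0 and 14.6 peaks per Mb in replicate 1 and 14.4, 13.6 and 13.2 in replicate 2 up to 15 Mb from the end, and 11.6 and 10.9 in the stretch beyond. Within the last 5 Mb its outermost 1 Mb was highest, with 21.6 and 20.5 peaks per Mb, followed by 14.4 and 14.5 in the next. By the rule this bin ends at a peak and holds no empty tail, while the first zone starts at base 1 with its first peak a median of 80.6 to 145 kb in, depending on the list. Farther in, the density varied between bins, with another high of 19.8 and 18.4 between 10 and 11 Mb. A rise in H3K27me3 peaks was seen at the other end too, with 15.1 per Mb in both libraries in the first 1 Mb from the centromere side and 6.62 and 6.17 in the next.

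Among all 484 whole stretches of 5 Mb on the autosomes, counted from the distal end, the 29 terminal stretches made up 5.99%. They took 17 of the 48 highest places by H3K27me3 coverage, or 35.4%, and their median percentile was 93.0. By H3K4me3 density they took 8 of 48 places, or 16.7%, with a median percentile of 76.2. The stretches next to them took 6 of the top places for H3K27me3 coverage and 9 for H3K4me3 density. Terminal stretches were not uniformly rich, since 3 of 29 lay below the median stretch in H3K27me3 coverage and 7 in H3K4me3 density.

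The 29 ends differed widely, and the replicates ranked them alike. H3K27me3 coverage, as the mean of both libraries, ran from 1.73% to 63.7% with a median of 26.7%. It was highest on chromosome 26, at 62.9% and 64.6% in replicates 1 and 2 against 9.12% and 9.39% in its interior. Chromosome 20 followed with 50.5% and 53.2% against 3.87% and 4.44%, and chromosome 23 with 50.2% and 48.0%. At each of these ends the marked part covered about as much as, or more than, the unmarked part, in both libraries. The largest ratio to the interior was on chromosome 9, where 33.4% in both libraries stood against 1.81% and 2.18%, a ratio of 16.7. Chromosome 6 had 28.3% and 26.7% against 2.40% and 2.64%. The ratio exceeded 2 at 19 ends.

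H3K27me3 coverage was below that of the interior at 5 ends, those of chromosomes 1, 7, 10, 16 and 17. Chromosome 7 had 1.36% and 2.11% against 7.24% and 8.01%, the lowest ratio at 0.227. Chromosome 10 had 2.21% and 2.63% against 4.08% and 4.68%. Chromosome 1 had 2.46% and 2.63% against 3.60% and 4.13%, and chromosome 16 had 3.01% and 2.65% against 6.96% and 7.42%. On these 4 chromosomes the first 5 Mb were richer in H3K27me3 than the last, and on chromosome 7 they were covered for 26.7% and 29.2%. Chromosome 17 had 9.28% and 8.49% against 11.6% and 12.5%, although its H3K27me3 peaks were more numerous at the end, at 11 and 8.6 per Mb against 8.06 and 7.29. The distal excess was therefore a property of most ends and not of all.

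H3K4me3 density at the ends ran from 3.80 to 39.8 peaks per Mb, with a median of 11.4. The densest were chromosome 23 with 40 and 39.6, chromosome 18 with 39.4 and 35.6, and chromosome 17 with 35.8 in both libraries. The sparsest was chromosome 14 with 3.60 and 4.00, below chromosome 27 with 4.60 and 3.80 and chromosome 26 with 4.40 in both libraries. The libraries of chromosome 27 overlapped those of chromosome 14, while both libraries of chromosome 26 lay above those of chromosome 14. The excess over the interior was above 1 at 22 ends and above 2 at 8, and was largest on chromosomes 17 and 6, each at 4.89 times. Chromosome 6 had 21.4 and 20.8 peaks per Mb at its end against 4.57 and 4.06 in its interior. Chromosome 19 went the other way, with 6 and 5.6 at its end against 23.9 and 22.

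The 3 ends highest and the 3 lowest in number of H3K27me3 peaks were also those highest and lowest in coverage. Other ends were ordered differently, such as chromosome 29, which ranked 6 by number and 16 by coverage. On chromosome 2 the ranks were 15 and 6. Peak number was highest on chromosome 20, at 45 and 36.4 peaks per Mb, before chromosome 26 with 32.6 and 27.8 and chromosome 23 with 28 and 23.2. It was lowest on chromosome 7, at 2.2 and 3.2 peaks per Mb, and on chromosomes 1 and 10, each at 2.6 and 3.2. Those lowest ends could not be ordered beyond the spread between libraries. The fall from replicate 1 to replicate 2 in the number of peaks at the richest ends came with a smaller change in coverage, as 50.5% and 53.2% on chromosome 20 show. By H3K4me3 coverage, chromosome 18 led with 9.79% and 10.1%, then chromosome 17 with 9.28% and 9.06% and chromosome 23 with 7.46% and 8.68%. The lowest were chromosome 27 with 0.688% and 0.668%, chromosome 14 with 0.868% and 0.872% and chromosome 26 with 0.972% and 1%. The same 3 chromosomes were thus lowest in number and in coverage of H3K4me3.

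The shares and widths varied among the ends as well, given here as the mean of both libraries. The share of H3K4me3 peaks that overlapped H3K27me3 had a median of 28% over the 29 ends and ran from 11.0% on chromosome 10 to 47.7% on chromosome 26. The share of H3K27me3 peaks that overlapped H3K4me3 had a median of 19.8% and ran from 2.98% on chromosome 20 to 46.9% on chromosome 16. The 3 ends highest in H3K27me3 coverage differed in this share. Chromosome 26 was low, like chromosome 20, with 6.13% and 5.04%, while chromosome 23 had 41.4% and 40.5%. Median H3K27me3 peak width ran from 4450 bp on chromosome 7 to 13000 bp on chromosome 13, and median H3K4me3 peak width from 1200 bp on chromosome 27 to 2600 bp on chromosome 8. H3K27me3 peaks of every end recurred in the other replicate at shares between 76.7% (chromosome 7) and 97.4% (chromosome 26).

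**Figure D1:**
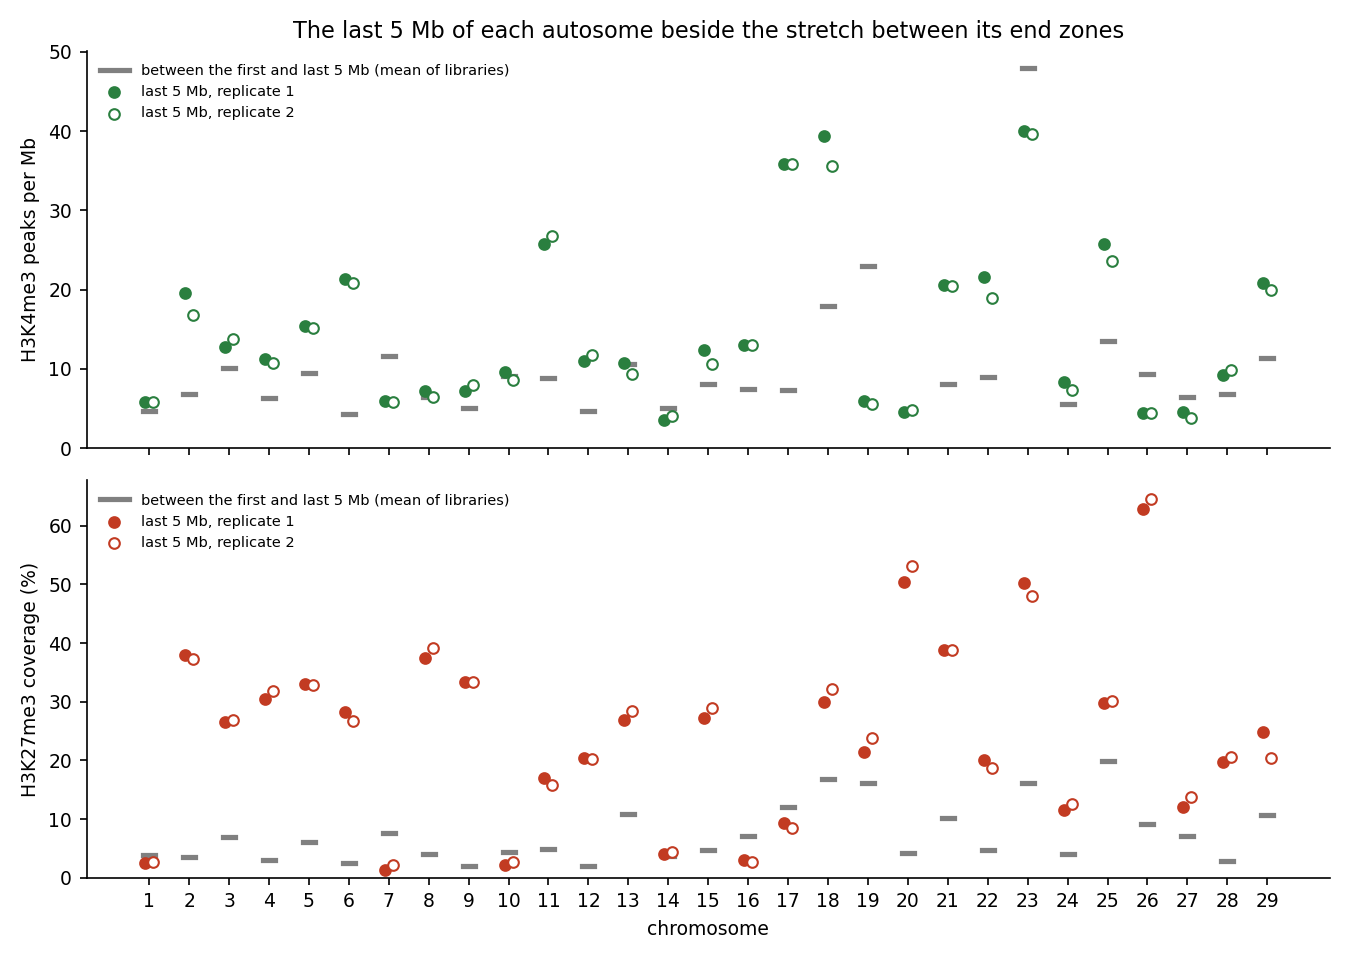
H3K4me3 density in peaks per Mb and H3K27me3 coverage in percent for the last 5 Mb of each of the 29 autosomes, with replicate 1 filled, replicate 2 open and a grey dash for the interior of the same chromosome as the mean of both libraries. The replicates lie close together at nearly every end, and the ends of chromosomes 26 and 20 lead in H3K27me3 while those of chromosomes 23, 18 and 17 lead in H3K4me3.

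The ends rich in H3K27me3 were not in general those rich in H3K4me3. Across the 29 ends the coverages of the marks had a Pearson's r of 0.121 and a Spearman's rho of 0.176, given as a description, since ends share their libraries and base composition was not examined. Coverage of a mark in replicate 2 followed replicate 1 with an r of 0.995 for H3K27me3, and density with an r of 0.994 for H3K4me3. Chromosome 26, first in H3K27me3 coverage, had an H3K4me3 density of 4.40 peaks per Mb in both libraries against 9.69 and 9.03 in its interior. Chromosome 17 was among the 3 densest ends in H3K4me3 and below its interior in H3K27me3 coverage, though not in H3K27me3 density. At 16 ends both marks covered more than in the interior, at 8 only H3K27me3 did, at 2 only H3K4me3 did (chromosomes 16 and 17), and at 3 neither did (chromosomes 1, 7 and 10). The ratio to the interior was larger for H3K27me3 than for H3K4me3 at 22 of 29 ends. H3K27me3 coverage of an end showed little relation to the length of its chromosome (r = -0.18 and rho = -0.05 over 29 chromosomes, as a description).

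**Figure D2:**
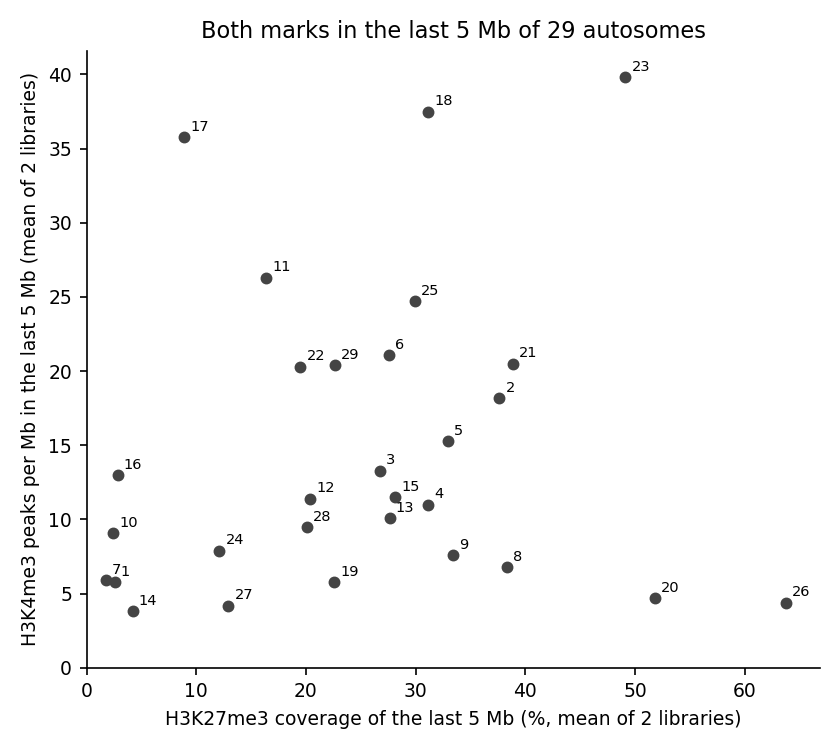
H3K27me3 coverage of the last 5 Mb in percent and H3K4me3 density there in peaks per Mb, both as the mean of 2 libraries, with a point for each of the 29 autosomes. The points show no common trend, and chromosome 26 combines the highest H3K27me3 coverage (63.7%) with little H3K4me3.

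Peak width changed between zones in opposite directions for the marks. The median H3K27me3 peak of the distal zones was 8000 bp wide in replicate 1 and 8600 bp in replicate 2, against 6600 and 7200 bp in the interior and the same in the first 5 Mb. The ratio of 1.2 was above 1 on 24 of 29 chromosomes in each comparison (exact sign test, adjusted p = 0.00146 for both). Against the first 5 Mb the call was lost with zones of 2 Mb (ratio 1.29) and with zones moved 200 kb inwards (ratio 1.19). The upper tail was wider as well, and 446 of 2542 distal peaks (17.5%, 95% Wilson interval 16.1 to 19.1) and 491 of 2193 (22.4%, 20.7 to 24.2) spanned at least 20 kb. In the interior 10.8% and 12.6% did. The widest distal peaks were of 216.4 and 237 kb, and the widest of the interior of 273.6 and 464.8 kb. The interior maxima were taken over more peaks, 12208 and 11649, so they do not compare the widths of the zones. H3K4me3 peaks were instead narrower in the distal zones, with medians of 2000 and 2200 bp against 2200 and 2600 bp in the interior, and the chromosome medians were lower on 26 of 29 chromosomes (exact sign test, adjusted p = 0.000122). Against the first 5 Mb, at 2000 and 2400 bp, the difference did not pass (exact sign test, adjusted p = 0.289). No distal H3K4me3 peak reached 20 kb (95% Wilson interval up to 0.177% and 0.184%), and none in the first 5 Mb did. In the interior 12 did in each library, or 0.0588% and 0.0642%, which lie within the distal intervals. Widths were not compared between marks, because the authors allowed wider gaps within H3K27me3 peaks.

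**Figure D3:**
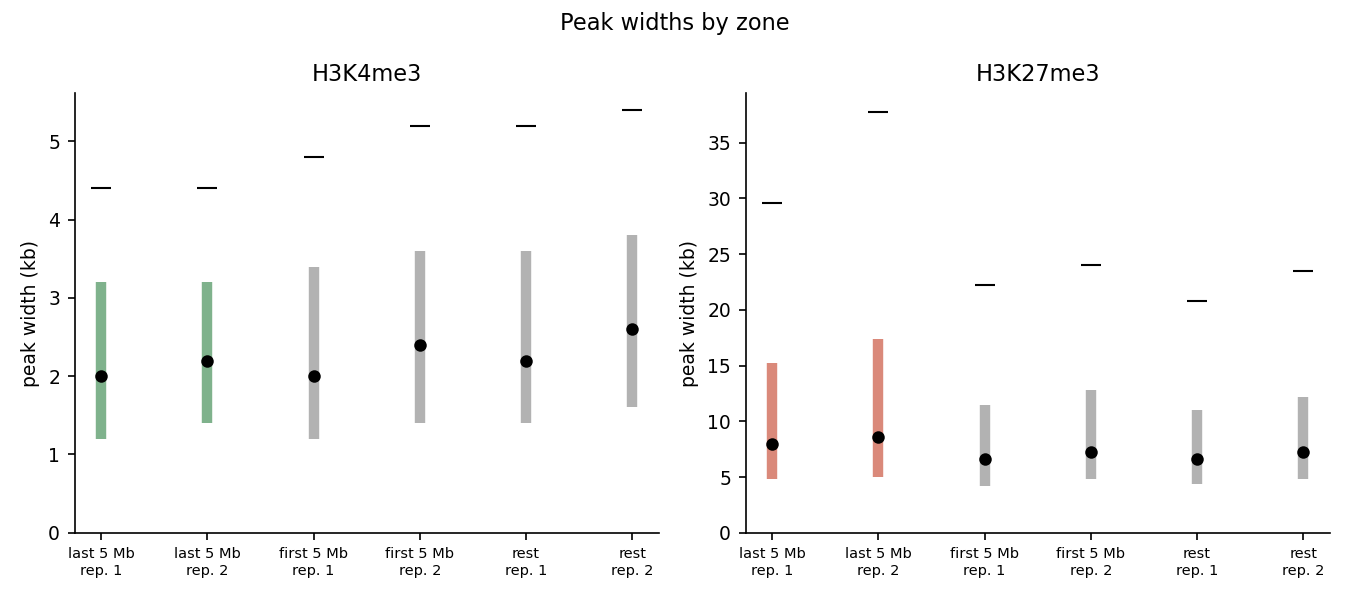
Peak width in kb by zone, mark and library, with a dot at the median, a bar from the 25th to the 75th percentile and a tick at the 90th. Distal H3K27me3 peaks have medians of 8000 and 8600 bp, above 6600 and 7200 bp in the interior, while distal H3K4me3 medians of 2000 and 2200 bp lie below those of the interior.

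Overlap of the marks was counted for each peak that shared at least 1 bp with a peak of the other mark in the library of the same number. Of the distal H3K4me3 peaks, 614 of 2170 (28.3%, 95% Wilson interval 26.4 to 30.2) and 552 of 2087 (26.5%, 24.6 to 28.4) overlapped H3K27me3, against 24.7% and 24.9% of all autosomal H3K4me3 peaks. The interior had 23.9% and 24.3%, and the first 5 Mb had 30.6% and 31.6%. The distal share was a mean of 3.26 percentage points above the interior, with 23 chromosomes higher and 6 lower (exact sign test, adjusted p = 0.00505), and differed by -3.70 points from the first 5 Mb without passing (exact sign test, adjusted p = 0.289). The excess over the interior no longer passed with zones of 2 Mb (0.589 points) or 10 Mb (0.564 points), with zones moved 200 kb inwards (2.52 points), with 50% of the peak required to overlap (2.72 points) or without replicate 1 (2.12 points). The excess was seen among low-score peaks. In the lowest 25% of scores 35.5% and 34.1% of distal H3K4me3 peaks overlapped H3K27me3 against 20.3% and 22.4% in the interior, but in the highest 25% 11.4% and 9.24% did against 13.7% and 13.4%. For peaks that reached the list median score the difference turned to -4.58 points (exact sign test, adjusted p = 0.160).

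H3K27me3 peaks met H3K4me3 less often in the distal zones. Of the distal H3K27me3 peaks, 437 of 2542 (17.2%, 15.8 to 18.7) and 397 of 2193 (18.1%, 16.5 to 19.8) overlapped H3K4me3, against 25.9% and 26.2% of all autosomal H3K27me3 peaks. The interior had 28.1% and 28.3%, a difference of -10.6 points with 21 chromosomes lower and 8 higher (exact sign test, adjusted p = 0.0341, and 0.0504 without chromosome 23). With zones of 2 Mb it was -8.57 points and no longer passed. The first 5 Mb had 21.3% and 20.2%, from which the distal zones did not differ by the test (exact sign test, adjusted p = 0.478). The gap from the interior was wide in the highest 25% of scores, where 21.5% and 24.9% of distal peaks overlapped H3K4me3 against 46.9% and 48.1% in the interior, and small in the lowest 25%, at 12.9% and 16.1% against 16.3% in both libraries.

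The shares were also taken over regions in which both replicates had a peak, merged per mark. Of 1756 distal H3K4me3 regions, 468 (26.7%, 24.6 to 28.8) overlapped a shared H3K27me3 region, against 25% of all such autosomal regions, 24.3% in the interior and 33.2% in the first 5 Mb. Of those 468, 353 lay wholly inside H3K27me3 and 115 reached out of it. In the interior 3053 of 3914 lay inside and 861 reached out. The other 1288 carried H3K4me3 alone and were wider, with a median of 3000 bp against 2200 bp for those over H3K27me3. The order was the same in the interior (3400 against 3000 bp) and in the first 5 Mb (3200 against 2400 bp). Of 1622 distal H3K27me3 regions, 361 (22.3%, 20.3 to 24.3) overlapped H3K4me3, against 32.3% of all autosomal ones and 34.9% in the interior. Of those 361, 81 (22.4%) held at least 2 H3K4me3 regions, against 20.2% in the interior and 32.3% in the first 5 Mb. Most distal H3K27me3 regions thus held no shared H3K4me3 region.

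Counted in bases and pooled over the 29 chromosomes, the distal zones differed from the rest in how H3K4me3 was placed relative to H3K27me3. Of the bases under H3K4me3 in the last 5 Mb, 20.6% and 19.6% were also under H3K27me3, less than the 24.6% and 24.9% of all bases there. In the interior 19.6% and 19.8% of H3K4me3 bases were under H3K27me3, which covered only 6.02% and 6.55% of it. The share of H3K4me3 bases under H3K27me3 was therefore similar in both zones, while the coverage it stands against differed several fold. Divided by that coverage, the share was 0.838 and 0.787 in the distal zones, 3.26 and 3.02 in the interior, and 2.69 and 2.40 in the first 5 Mb. As the mean of both libraries, the quotient was lower at the end than in the interior on 25 of 29 chromosomes, with chromosomes 1 (in replicate 2 only), 7, 16 and 19 as exceptions, and without chromosome 23 the distal values were 0.810 and 0.747. Single ends differed from the pooled values, with a quotient above 1 in both libraries at 13 ends and below 1 in both at 15. This measure was chosen after the values had been seen and is given without a test.

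**Figure D4:**
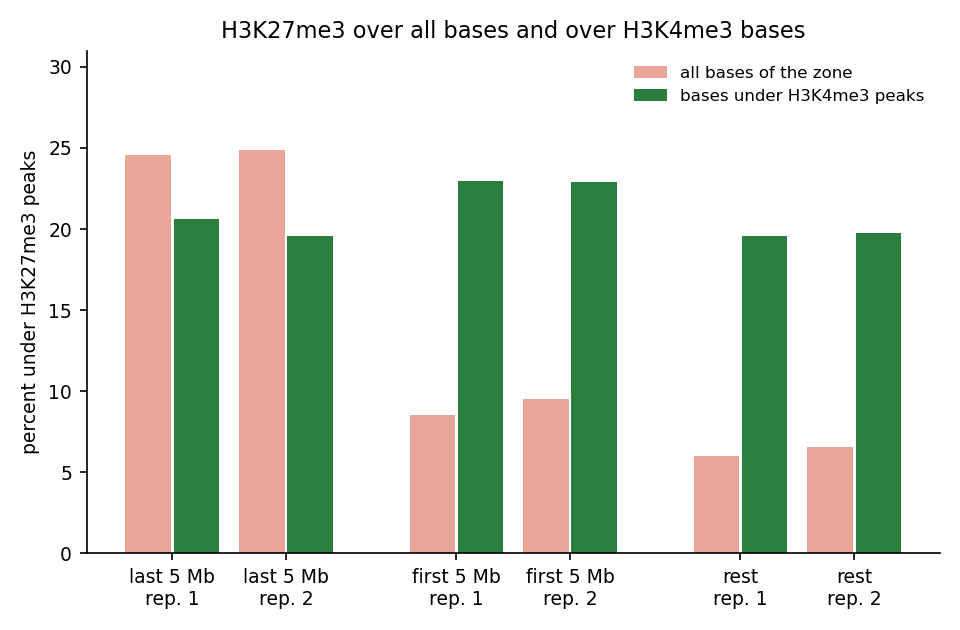
Percentage of all bases of a zone under H3K27me3 (light bars) and percentage of its H3K4me3 bases under H3K27me3 (green bars) for the last 5 Mb, the first 5 Mb and the interior (rest), per library. The green bars are near 20% in the last 5 Mb and the interior, but stand below the light bars only in the last 5 Mb.

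Distances between the marks differed from the interior in opposite ways in both end zones. The H3K4me3 peaks that overlapped no H3K27me3 had a median gap to the nearest H3K27me3 peak of 45.8 and 45.6 kb in the distal zones, against 86.6 and 80.8 kb in the interior and 67.7 and 61.6 kb in the first 5 Mb. The H3K27me3 peaks that overlapped no H3K4me3 were farther from H3K4me3, at 67.6 and 68.4 kb against 49.2 and 51.0 kb in the interior, and at 72.6 and 75.6 kb in the first 5 Mb. Of the former, 20.4% and 20.6% had H3K27me3 within 10 kb in the distal zones, against 12.7% and 13.5% in the interior. These values are given as descriptions.

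The H3K27me3 peaks of the distal zones had higher scores, and those of replicate 2 recurred more often. Of them, 58.7% and 54.5% reached the median score of their list, against 50.9% and 46.7% of all autosomal H3K27me3 peaks, and the mean excess over the interior was 9.29 points (25 of 29 chromosomes, exact sign test, adjusted p = 0.000622), which no longer passed with zones of 10 Mb (6.54 points). In the other replicate 89.6% and 91.4% were found, against 87.7% and 82.4% of all autosomal ones, with a mean excess over the interior of 6.47 points (26 of 29, exact sign test, adjusted p = 0.000122). Replicate 2 carried most of it, at 10.5 points (exact sign test, adjusted p = 0.00124), while replicate 1 alone gave 2.44 points and did not pass (20 of 29, exact sign test, adjusted p = 0.0894). Among peaks that reached the median score the mean excess was 2.79 points and did not pass either (exact sign test, adjusted p = 0.0819). Wider peaks can meet a peak of the other library more easily, and the part of width in this share was not tested. Scores were not divided by peak width here, and the part of width in the score shares of either mark was not tested. H3K4me3 peaks of the distal zones had lower scores, with 46.9% and 42.7% at or above the list median against 51.9% and 52.0% of all autosomal H3K4me3 peaks, a difference of -8.02 points from the interior (lower on 26 of 29, exact sign test, adjusted p = 0.000122). In the other replicate 84.4% and 88.8% of them were found, against 82.9% and 89.6% of all, a difference from the interior that did not pass (exact sign test, adjusted p = 0.172). Among peaks of both lists that reached the median score the difference was -2.62 points and passed (lower on 24 of 29, exact sign test, adjusted p = 0.00364).

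The widest distal H3K27me3 regions shared by both replicates, positions on ARS-UCD1.2, showed Polycomb domains with and without H3K4me3. The widest, chr4:117475001-117713000, spanned 238 kb, lay 2.19 Mb from the end, and held 2 shared H3K4me3 regions. It was listed as 2 peaks of at most 216.4 kb in replicate 1 and as a single peak of 237 kb in replicate 2. The next, chr23:48491201-48724600, spanned 233.4 kb and also held 2 H3K4me3 regions. The region chr12:85875001-86106000, of 231 kb, held no shared H3K4me3 region, although replicate 2 listed an H3K4me3 peak of 0.8 kb in it. The region chr2:134656801-134876400, of 219.6 kb and 1.35 Mb from the end, held no H3K4me3 peak in either library, and neither did chr25:39513401-39707600 (194.2 kb) or chr19:62014401-62204600 (190.2 kb). The calls could differ in how they were joined, since the chromosome 19 region was a single peak of 190.2 kb in replicate 2 and 6 peaks of at most 56.8 kb in replicate 1.

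At the other extreme, 3 distal H3K27me3 regions held 5 shared H3K4me3 regions each, the most among distal regions, while the most held by a region was 19 in the interior and 11 in the first 5 Mb. They were chr23:47538801-47757400 (218.6 kb), chr6:114961601-115072000 (110.4 kb) and chr4:117192401-117242800 (50.4 kb). The last of these lay before the widest region on the same chromosome. Which genes lie in any named region was not examined, because no annotation of this build was used.

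Of the 8 distal H3K4me3 regions named for width or score, 5 carried no H3K27me3, while 73.3% of all distal H3K4me3 regions did not overlap it. The highest score belonged to chr25:38879001-38891800, a region of 12.8 kb with peaks of 12.6 and 12.8 kb and scores of 2516 and 2288, without H3K27me3. The widest was chr15:80965601-80984000, of 18.4 kb, a single peak of 17.8 kb in replicate 1 and 3 peaks of at most 10.2 kb in replicate 2, again without H3K27me3. The region chr18:61888801-61905000, of 16.2 kb, and chr28:41642201-41651400, of 9.2 kb, carried H3K4me3 alone as well, as did chr15:82765201-82779400, of 14.2 kb. In contrast, chr22:59339401-59353200 (13.8 kb) and chr16:76854801-76868400 (13.6 kb) lay inside H3K27me3 peaks of 21.4 and 31.4 kb and of 22 and 21.4 kb.

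A compact site with both marks was the last listed on chromosome 16. Its H3K27me3 peak set the chromosome end used here in both libraries, so its place at the end follows from the rule. The region chr16:81001001-81003800, 2.8 kb wide, had H3K4me3 scores of 1485 and 1467 and lay inside H3K27me3 peaks of 3.6 and 3.4 kb with scores of 1382 and 1735. Per window of 200 bp these H3K4me3 scores were 124 and 105, above the 99th percentile of 43.3 and 40.8 of their lists. The H3K27me3 scores per window were 76.8 and 102, against 99th percentiles of 17.7 and 25.6. In the outermost 10 kb of all 29 chromosomes the lists held 20 and 17 H3K4me3 peaks and 24 and 27 H3K27me3 peaks. Every chromosome has a peak there by the way its end was set, and the H3K4me3 lists set 3 and 5 of the ends and the H3K27me3 lists 12 and 14, some of them together.

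Chromosome 23 was set apart because of its many H3K4me3 peaks. Its end held 40 and 39.6 H3K4me3 peaks per Mb, fewer than its interior at 51.5 and 44.4. H3K27me3 covered 50.2% and 48.0% of the end against 16.1% and 16.3% of the interior, so the marks moved in opposite directions there. Of its distal H3K4me3 peaks 45.0% and 40.4% overlapped H3K27me3, 47.5% and 48.0% were found in the other replicate, and 17.5% and 15.2% reached the list median score. In the interior of chromosome 23 those shares were 30.6% and 28%, 56.1% and 62.6%, and 19.8% and 21.8%, so low scores and low recurrence of H3K4me3 peaks were found along the whole chromosome.

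Without chromosome 23 the distal zones held 1970 and 1889 H3K4me3 peaks and 2402 and 2077 H3K27me3 peaks. H3K27me3 coverage over the 28 other chromosomes was 23.7% and 24.0% in the last 5 Mb against 5.82% and 6.35% in the interior, a ratio of 3.92 (23 of 28, exact sign test, adjusted p = 0.00243), and 2.58 times the first 5 Mb (exact sign test, adjusted p = 0.00744). H3K4me3 density was 14.1 and 13.5 against 8.46 and 7.81 per Mb, a ratio of 1.69 (22 of 28, exact sign test, adjusted p = 0.00744). The distal excess of both marks was thus about as large without that chromosome. Overlap with H3K27me3 was then 26.6% and 25% of distal H3K4me3 peaks, 2.29 points above the interior.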

How the data were processed

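The data were 4 peak lists, 2 libraries each for H3K4me3 and H3K27me3. The authors trimmed reads with Trim Galore, used BWA (0.7.17-r1188) for alignment to ARS-UCD1.2, discarded duplicates with Picard and low-quality alignments with SAMtools (1.7), and ran epic2 per library on 200 bp windows with a larger gap allowance for H3K27me3 than for H3K4me3. No control and no pooling are stated. The deposited lists have 6 columns without a header, and their score column holds a whole number of unnamed meaning. Read depth per library is unknown, so no precision from depth is given, and Wilson intervals cover counting error only.

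Peaks were extended to whole windows and counted from 1. A peak belonged to a zone when wholly inside it. Density is peaks per Mb, coverage is the percentage of bases under peaks, and overlap needs 1 bp. Interiors exclude both end zones. For 6 measures, 2 marks and 2 contrasts an exact two-sided sign test over 29 chromosomes was run on the mean of both libraries, with Benjamini-Hochberg adjustment. By rule, the text names regions shared by both replicates (the 5 widest of each mark, the 5 H3K4me3 regions highest in score, and the 3 H3K27me3 regions widest without, and richest in, H3K4me3) and the 3 ends highest and lowest in each mark. The other ends named, and the scores per window on chromosome 16, were picked after their values were seen. The zones, measures and lists were chosen with earlier results of these data known. Alternatives were zones of 2 and 10 Mb, zones moved by 200 kb, higher-score or shared peaks, an overlap of 50%, the other mark from the library of the other number, a minimum width, zones by peak midpoint, and leaving out a replicate or chromosome 23. Added after seeing the data were each chromosome left out, successive stretches inwards and overlap in bases. Python 3.11.15 with NumPy 2.4.6, pandas 2.3.3 and SciPy 1.17.1 was used, and overlaps were checked with bedtools 2.31.1. The steps were tested on simulated data.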

Additional observations from a re-analysis of the deposited data

How the results depend on the processing

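Of the 24 differences between zones, 17 passed the exact sign test, and 6 of these passed under every alternative run: H3K27me3 density and coverage against the interior, its coverage against the first 5 Mb, its width against the interior, and H3K4me3 width and upper-score share against the interior. Over the alternatives H3K27me3 coverage was 3.39 to 4.37 times the interior. Of 226 values under alternatives, 189 kept direction and side of the threshold, 26 no longer passed, 5 newly passed and 6 reversed. The causes were not tested. Upper-score share means peaks reaching the list median score, and recurrence means peaks found in the other replicate.

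Leaving out a replicate, the ratio of H3K27me3 density to the first 5 Mb was 1.88 to 2.14, H3K4me3 overlap with H3K27me3 was 2.12 to 4.41 points above the interior, and its upper-score share was -8.66 to -3.78 points from the first 5 Mb. In each case the lower value, without replicate 1, changed the call. Without chromosome 23, H3K4me3 coverage against the first 5 Mb (1.53) and H3K27me3 overlap against the interior (-10.6 points) no longer passed, and H3K4me3 recurrence against the first 5 Mb turned to 1.17 points.

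With zones of 2 Mb, H3K4me3 density (1.68) and H3K27me3 width (1.29) against the first zone no longer passed, nor did overlap against the interior for H3K4me3 (0.589 points) and H3K27me3 (-8.57 points). H3K4me3 recurrence passed against the interior (3.41 points) and turned to 0.549 points against the first zone. With zones of 10 Mb, H3K4me3 density against the interior (1.69) and first zone (1.76), its coverage against the first zone (1.70), its overlap against the interior (0.564 points) and the H3K27me3 upper-score share (6.54 and 5.54 points) no longer passed, and H3K4me3 recurrence turned to -0.356 and 2.05 points.

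For peaks at or above the median score, H3K4me3 density (1.40 and 1.48), its coverage against the first 5 Mb (1.42) and H3K27me3 recurrence (2.79 and 2.95 points) no longer passed. Against the interior H3K4me3 overlap reversed to -4.58 points without passing, and its recurrence reversed to -2.62 points and passed, as it did against the first 5 Mb (-2.76 points). For peaks in both replicates, H3K4me3 overlap against the first 5 Mb passed (-6.38 points) and the H3K27me3 upper-score share did not (5.98 points). With zones moved 200 kb inwards, H3K4me3 density (1.59 and 1.70), H3K27me3 width against the first 5 Mb (1.19), H3K4me3 overlap against the interior (2.52 points) and the H3K27me3 upper-score share against the first 5 Mb (8.66 points) no longer passed, and the H3K4me3 upper-score share against the first 5 Mb did (-8.71 points). When 50% of a peak had to be overlapped, H3K4me3 overlap against the interior was 2.72 points and no longer passed.

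Leaving out each chromosome in turn, the ratio to the interior was 3.75 to 4.14 for H3K27me3 coverage and 1.56 (without chromosome 17) to 1.75 (without chromosome 19) for H3K4me3 density. Recurrence needs both replicates and was taken for each library alone: H3K27me3 recurrence was 2.44 points (replicate 1, not passing) and 10.5 points (replicate 2) above the interior, and 0.735 (not passing) and 10.4 points above the first 5 Mb. It is fixed among shared peaks, as is the upper-score share among higher-score peaks. Taking the other mark from the library of the other number changed no call. No paired analysis was possible because no groups of samples are compared that replicate numbers could pair. The sign tests pair zones within chromosomes instead. The lists hold no reads, so weak marks under the caller's threshold, and the depth behind them, cannot be judged.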

Other observations

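Chromosome X, which was outside the comparison of autosomes, did not show a distal excess of H3K27me3. Its last 5 Mb were covered for 18.4% and 17.7% in replicates 1 and 2, against 58.2% and 73.9% of its interior and 68.5% and 82.8% of its first 5 Mb. H3K27me3 peaks were at 11.6 and 9.20 per Mb there against 53.9 and 37.7 in the interior. H3K4me3 density was near that of the interior, at 6.2 and 5.6 against 6.12 and 5.71 per Mb. Of the distal H3K4me3 peaks of chromosome X, 9 of 31 (29%) and 5 of 28 (17.9%) overlapped H3K27me3, against 82.9% and 84.8% in its interior. With a single such chromosome these values were not tested.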
